A study of Mus musculus with 18 samples.

Results

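The 10 genes described here encode the proteins that carry arginine into the macrophage and turn it over: the transporters Slc7a1 and Slc7a2, the arginases Arg1 and Arg2, the inducible nitric oxide synthase Nos2, the recycling enzymes Ass1 and Asl, and the polyamine enzymes Odc1, Srm and Sms. They were chosen by name: every probe on the array that is not a control and carries one of these symbols was taken, which gave 15 probes for 10 genes among 41174 probes and 21307 named genes. For 9 of the genes some probe cleared background on every array of 1 group or more, and these were tested among 15497 genes. Nos2 did not pass.

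RNA came from bone marrow-derived macrophages, grown from marrow with the growth factor CSF1, of Irf4-/- mice and of their Irf4+/- littermates, all on the C57BL6/J background and 8 to 12 weeks old. Both genotypes therefore lack at least 1 Irf4 allele, and no wild-type cells were compared. Mock cells had no IL-4 for 18 h, and treated cells had 10 ng/ml of it for 4 h or 18 h, so the shorter treatment is read against an 18 h mock. Each of the 6 groups had 3 arrays, 1 from each of 3 experiments named A, B and C, with littermates used within an experiment, and each sample pooled cells of several animals (2 males and 1 female per the labels). Levels are the log2 of the array intensity minus the 75th percentile of the same array, a unit on which a difference of 1 is 2-fold. Changes are differences of such levels with their standard error (SE) from limma, and a change was called, and is written as a rise or fall, where the adjusted p over all 15497 genes was under 0.05. Because littermates link the arrays of an experiment, the adjusted p with the experiment as a block is given wherever it alters a call of the 10 genes. For the further pathway genes it is given for some genes only, beside counts for all.

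Arginine stands at a branch point in macrophages. Arginase splits it into ornithine and urea, and ornithine feeds polyamine and proline synthesis, while nitric oxide synthase oxidises it to nitric oxide and citrulline. Citrulline can be rebuilt into arginine by argininosuccinate synthase and lyase. IL-4 is the classical inducer of the arginase branch in mouse macrophages, and interferon gamma with bacterial products is that of the nitric oxide branch.

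On each array 63.4% to 74.4% of 43379 spots that are not controls were well above background. The 8 macrophage markers Csf1r, Adgre1, Cd68, Itgam, Mertk, Fcgr1, Lyz2 and Cd14 were above background on all 18 arrays. So were 5 of 6 neutrophil markers on the array, whose summed level (log2 of the summed intensity) lay between 4.16 and 4.38 in Irf4+/- mock arrays and between 4.02 and 5.73 in Irf4-/- mock arrays. The macrophage sum lay between 8.91 and 10.02 over all arrays. Also above background on all 18 arrays were 3 of 4 dendritic cell, 2 of 3 B cell and 2 of 3 fibroblast markers. So were 1 of 3 T and NK cell markers and 1 of 5 of basophils, mast cells and eosinophils. The highest summed level of these types was -0.89, of fibroblasts in an Irf4+/- mock array. The part of the other cell types in the values below was not tested. The Irf4 probe read -1.11 ± 0.72 (SD, n = 3) in Irf4+/- and -0.78 ± 0.22 in Irf4-/- mock cells, and rose with IL-4 in both, by 2.78 and 2.50 at 4 h. Its position against the deleted region is not known here, so the probe does not check the genotype labels. In bulk RNA, fewer cells of a type and less RNA per cell cannot be told apart.

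Arg1 and Slc7a2 rose with IL-4 in both genotypes and at both times, and Ass1 fell at 18 h. In Irf4+/- cells 2 of the 9 tested genes were called at 4 h, both up, against 4.28% of all genes, and 3 at 18 h, 2 up and 1 down, against 4.12%. In Irf4-/- cells the counts were also 2, against 3.91%, and 3, against 3.54%. With the experiment as a block 4 genes were called at 4 h in each genotype, where 18.2% of all genes were called in Irf4+/- and 18.2% in Irf4-/- cells. At 18 h 3 were called in each, against 15.5% and 18.6% of all genes with the block. Arg1, Arg2 and Slc7a2 passed the filter on dim signal without being above background on every array, so these counts describe the genes named and nothing more.

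**Figure D1:**
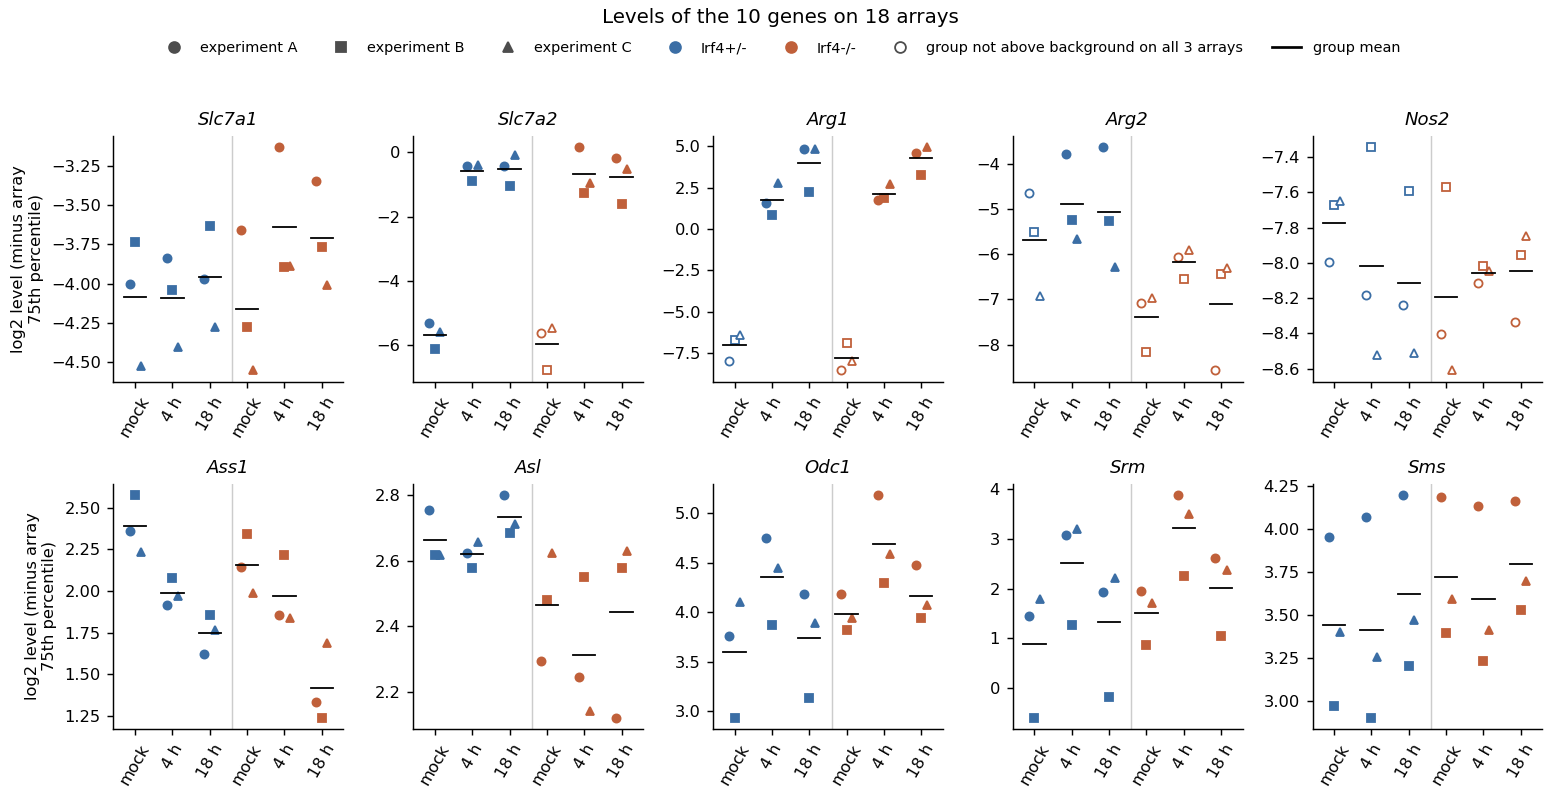
Log2 level (minus the array's 75th percentile) of the 10 genes in the 6 groups, 1 point per array, with the experiments as marker shapes, the genotypes as colours and the group mean as a bar; open markers show groups that were not above background on all 3 arrays. Arg1 and Slc7a2 are low in every mock array and high in every IL-4 array, and Nos2 stays below -7.3 on all 18.

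Slc7a2 encodes the cationic amino acid transporter CAT-2, which is inducible in macrophages and supplies arginine from the medium. In Irf4+/- cells its level was -5.32, -6.14 and -5.59 in the mock arrays of experiments A, B and C, and -0.43, -0.91 and -0.39 after 4 h of IL-4. After 18 h it was -0.42, -1.04 and -0.07. In Irf4-/- cells the mock levels were -5.65, -6.80 and -5.48, followed by 0.16, -1.27 and -0.95 at 4 h and -0.18, -1.62 and -0.51 at 18 h. Every IL-4 array lay above every mock array of its genotype. The rise was 5.11 ± 0.46 (SE) at 4 h and 5.17 ± 0.46 at 18 h in Irf4+/- cells, or 34.4-fold and 36.1-fold (adjusted p = 1.73e-05 and 1.14e-05). In Irf4-/- cells it was 5.29 ± 0.46 and 5.20 ± 0.46, or 39.0-fold and 36.9-fold (adjusted p = 9.11e-06 and 9.62e-06). Within single experiments the rise ran from 4.53 to 5.80. The 4 h and 18 h levels differed by 0.07 (95% confidence interval -0.91 to 1.05) in Irf4+/- and by -0.08 (-1.06 to 0.90) in Irf4-/- cells, so no further change between the times was detectable with 3 arrays per group. With normexp in place of the scanner software's background subtraction, the Irf4-/- differences were 2.36 and 2.28 at the 2 times and no longer called (adjusted p = 0.0623 and 0.0952). Both Irf4-/- calls held in 10 of 11 settings other than leaving out an array. Among these was normexp after spots far below their local background were left out.

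Slc7a1 encodes CAT-1, the transporter of the same family that most cells carry. Its levels in Irf4+/- cells were -4.00, -3.73 and -4.52 in mock, -3.84, -4.04 and -4.40 at 4 h and -3.97, -3.63 and -4.27 at 18 h. Levels in Irf4-/- cells were -3.66, -4.28 and -4.55 in mock, -3.13, -3.90 and -3.89 at 4 h and -3.35, -3.77 and -4.01 at 18 h. The groups overlapped throughout. No IL-4 change was called: in Irf4+/- cells it was -0.01 ± 0.30 at 4 h and 0.13 ± 0.30 at 18 h, and in Irf4-/- cells 0.52 ± 0.30 and 0.45 ± 0.30 (adjusted p = 0.517 and 0.609). The Irf4-/- values were positive in all 3 experiments at both times, between 0.31 and 0.66, and were not called with the experiment as a block either (adjusted p = 0.0697 and 0.106).

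Arg1 encodes the cytosolic arginase and had the widest range of the 10 genes, 13.5 log2 units over the 18 arrays. Its mock levels were -7.97, -6.69 and -6.38 in Irf4+/- cells, above background on 1 of 3 arrays, and -8.55, -6.90 and -7.96 in Irf4-/- cells, above background on none. After 4 h of IL-4 they were 1.54, 0.84 and 2.80 in Irf4+/- and 1.75, 1.88 and 2.71 in Irf4-/- cells. After 18 h they were 4.84, 2.22 and 4.86 and, in Irf4-/- cells, 4.61, 3.26 and 4.93. Experiment B was the lowest of the 3 at 18 h in both genotypes. The rise in Irf4+/- cells was 8.74 ± 0.74 at 4 h and 10.99 ± 0.74 at 18 h (adjusted p = 9.59e-06 and 7.44e-07). In Irf4-/- cells it was 9.92 ± 0.74 and 12.07 ± 0.74 (adjusted p = 2.61e-06 and 2.85e-07), and since mock was not above background there, the fold was at least 447 at 4 h and at least 1992 at 18 h. These bounds use, on each mock array, the higher of the probe's own signal and the dimmest signal that cleared background. With normexp the 4 rises were 5.47, 7.27, 5.28 and 7.28, in the same order, and all were called.

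From 4 h to 18 h Arg1 stood 2.25 ± 0.74 higher in Irf4+/- and 2.16 ± 0.74 higher in Irf4-/- cells. It was higher in all 3 experiments in both genotypes (3.30, 1.38 and 2.06, then 2.86, 1.38 and 2.22). Without the block neither difference was called (adjusted p = 0.216 and 0.321). With the block that of Irf4+/- cells was (adjusted p = 0.0402) and that of Irf4-/- cells was not (adjusted p = 0.0576). In this comparison of times 0 of the 9 genes were called in either genotype without the block, against 1.15% of all genes in Irf4+/- and 0.568% in Irf4-/- cells. With the block 3 were called in Irf4+/- cells, against 11.5%, and 2 in Irf4-/- cells, against 8.48%.

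Arg2, the mitochondrial arginase, was dim. Its levels in Irf4+/- cells were -4.64, -5.52 and -6.93 in mock, -3.79, -5.24 and -5.66 at 4 h and -3.63, -5.26 and -6.28 at 18 h. Irf4-/- cells gave -7.08, -8.16 and -6.96 in mock, -6.06, -6.56 and -5.91 at 4 h and -8.57, -6.44 and -6.31 at 18 h. No IL-4 change of Arg2 was called, with or without the block. The values were 0.80 ± 0.77 and 0.64 ± 0.77 in Irf4+/- and 1.22 ± 0.77 and 0.29 ± 0.77 in Irf4-/- cells, so changes like those of Arg1 lay outside their 95% confidence intervals, the highest of which reached 2.86.

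Nos2 encodes the inducible nitric oxide synthase, the competitor of arginase for its substrate. Its probe was printed 10 times per array. Of 175 spots left after outlier flags, 4 were well above background, on 4 arrays, and none of the 18 arrays had most of its spots above. The levels lay between -8.61 and -7.34 on all arrays, and the lowest signal called well above background lay between -7.28 and -6.09. The group means ran from -7.77 ± 0.19 (SD, n = 3) in Irf4+/- mock to -8.20 ± 0.55 in Irf4-/- mock. The IL-4 groups overlapped the mock group of their genotype, and the genotypes overlapped in each condition. Nos2 was thus not detectable above background in any group, and no fold is given.

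Ass1 encodes argininosuccinate synthase, which joins citrulline and aspartate in the first step of arginine recycling. Its levels in Irf4+/- cells were 2.36, 2.58 and 2.23 in mock, 1.92, 2.08 and 1.97 at 4 h and 1.63, 1.86 and 1.77 at 18 h. Among Irf4-/- arrays the levels were 2.14, 2.34 and 1.99 in mock, 1.85, 2.22 and 1.84 at 4 h and 1.34, 1.24 and 1.69 at 18 h. In both genotypes all 18 h arrays lay below all mock arrays. At 18 h Ass1 fell by 0.64 ± 0.17 on the log2 scale in Irf4+/- cells, or 1.56-fold (adjusted p = 0.0479), and by 0.74 ± 0.17 in Irf4-/- cells, or 1.67-fold (adjusted p = 0.0244). At 4 h the differences were -0.40 ± 0.17 and -0.19 ± 0.17 and were not called (adjusted p = 0.286 and 0.745). From 4 h to 18 h Ass1 was 0.55 lower in Irf4-/- cells (-0.55 ± 0.17), which was called only with the block (adjusted p = 0.245, and 0.0301 with the block).

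At 18 h Ass1 was lower than mock in all 3 experiments of both genotypes. With the block the limma adjusted p was 0.00648 in Irf4+/- and 0.00295 in Irf4-/- cells. Without the block the 18 h call of Ass1 is close to the threshold. In Irf4+/- cells it held in 2 of 18 fits that each left out 1 array, those without the Irf4-/- 4 h array of B and without the Irf4-/- 18 h array of C, and the adjusted p ran from 0.0421 to 0.197. In Irf4-/- cells it held in 14 of 18, being lost without the Irf4-/- mock or 18 h array of A or of B, at an adjusted p of up to 0.135. In the 11 other settings it held in 5 in Irf4+/- and in 6 in Irf4-/- cells. The limma adjusted p there reached 0.317 and 0.374. The dimmer of the 2 kept Ass1 probes read -0.47 ± 0.21 in Irf4+/- and -0.68 ± 0.21 in Irf4-/- cells at 18 h, neither called without the block (adjusted p = 0.371 and 0.106). With the block only its Irf4-/- value was called (limma adjusted p = 0.0821 and 0.0137). The change was negative under all settings that were run, between -0.88 and -0.55 in Irf4+/- and between -0.87 and -0.60 in Irf4-/- cells.

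The start of Ass1 is shown because it is the only one of the 10 genes that fell. The window, from RefSeq on GRCm38.p6, is chr2:31470020-31470319 on the plus strand, 250 bases before to 50 after the gene's start, and capitals mark an E-box (CACGTG), the core of sites bound by Myc and related factors.
Ass1: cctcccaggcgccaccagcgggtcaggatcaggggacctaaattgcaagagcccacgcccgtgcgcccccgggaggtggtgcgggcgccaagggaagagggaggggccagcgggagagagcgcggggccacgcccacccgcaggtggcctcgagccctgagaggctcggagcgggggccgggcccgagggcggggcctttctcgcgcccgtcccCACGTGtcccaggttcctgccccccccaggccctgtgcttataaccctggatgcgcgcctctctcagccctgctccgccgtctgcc
The E-box lies at positions -36 to -31, counted from the start. It is found in 7.15% of the 32851 RefSeq promoter windows of this length. The 4 other motifs searched on both strands, TTCNNNNGAA of STAT6, TTCNNNGAA of other STAT factors, GAAANNGAAA of interferon regulatory factors and TATAAA, have no match in these letters.

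Asl encodes argininosuccinate lyase, the next enzyme of the same pathway. Its levels in Irf4+/- cells ran from 2.58 to 2.80 over all 9 arrays. The Irf4-/- arrays read 2.30, 2.48 and 2.62 in mock, 2.25, 2.55 and 2.14 at 4 h and 2.12, 2.58 and 2.63 at 18 h. No IL-4 change was called and each was small: -0.04 ± 0.16 and 0.07 ± 0.16 in Irf4+/-, -0.15 ± 0.16 and -0.02 ± 0.16 in Irf4-/- cells. The 95% confidence intervals of these 4 values lay between -0.51 and 0.42. Over the same arrays on which Ass1 fell at 18 h, Asl was therefore within 1 SE of its mock level.

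**Figure D2:**
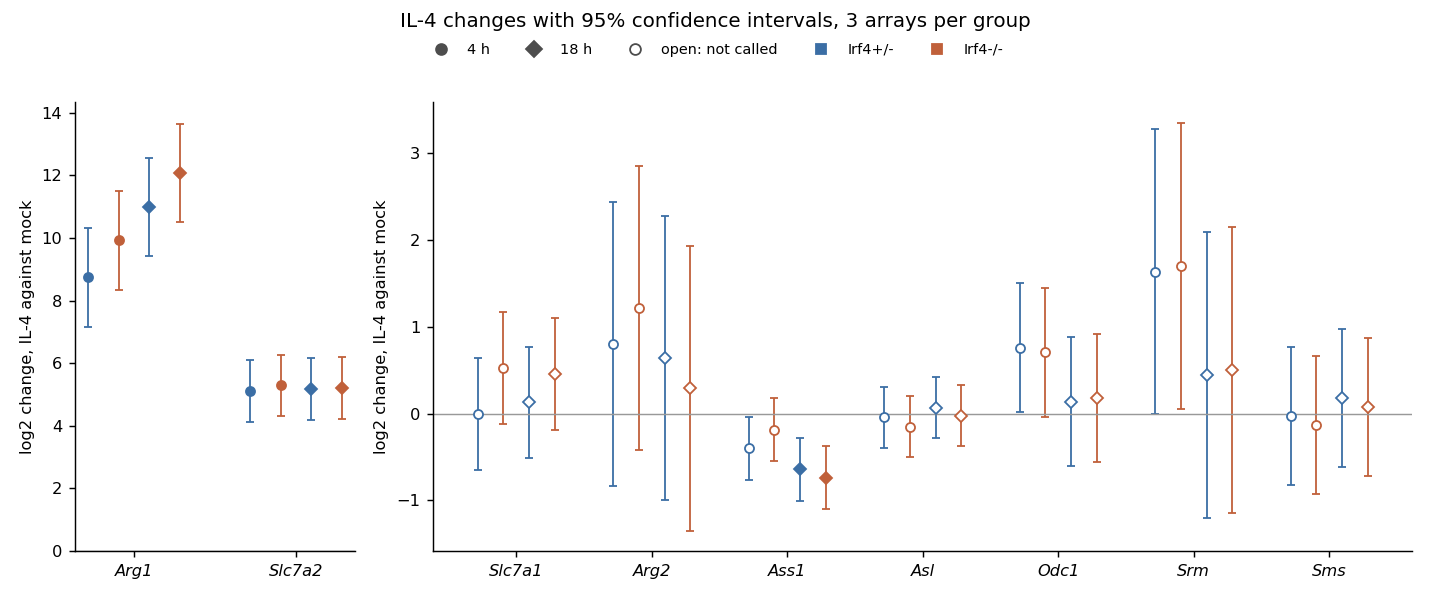
Log2 change with IL-4 against mock for the 9 genes that were tested, with 95% confidence intervals, 3 arrays per group; circles are 4 h, diamonds 18 h, colours the genotypes and filled symbols called changes without the block. Arg1 and Slc7a2 stand far above 0 in the left panel, Ass1 lies below 0 at 18 h, and the wide intervals of Srm include or nearly reach 0.

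Ornithine decarboxylase (Odc1) turns the product of arginase into putrescine, spermidine synthase (Srm) makes spermidine from it, and spermine synthase (Sms) makes spermine. Odc1 and Srm were higher at 4 h than in mock in all 3 experiments of both genotypes and were nearer to mock at 18 h, a shape that Sms did not show. The only mock was at 18 h, so IL-4 and time in culture cannot be told apart for this shape. The same limit holds for every comparison of 4 h with mock or with 18 h. Odc1 levels in Irf4+/- cells were 3.76, 2.93 and 4.10 in mock, 4.75, 3.87 and 4.45 at 4 h and 4.18, 3.13 and 3.89 at 18 h. The Irf4-/- levels were 4.18, 3.82 and 3.95 in mock, 5.18, 4.30 and 4.58 at 4 h and 4.48, 3.94 and 4.08 at 18 h. The groups overlapped in Irf4+/- cells, where experiment B was lowest in each condition, and at 4 h lay apart from mock in Irf4-/- cells.

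Srm levels in Irf4+/- cells were 1.44, -0.60 and 1.78 in mock, 3.07, 1.26 and 3.20 at 4 h and 1.93, -0.18 and 2.20 at 18 h. Levels in Irf4-/- cells were 1.95, 0.87 and 1.71 in mock, 3.89, 2.25 and 3.50 at 4 h and 2.61, 1.05 and 2.38 at 18 h. Experiment B was the lowest in all 6 groups, and the SD between experiments reached 1.30. The change at 4 h was 1.64 ± 0.77 in Irf4+/- and 1.70 ± 0.77 in Irf4-/- cells, or 3.11-fold and 3.26-fold. Within experiments it was 1.63, 1.87 and 1.41, and 1.94, 1.38 and 1.79. Without the block it was not called (adjusted p = 0.367 and 0.341). With the block it was, and the SE fell to 0.25 (adjusted p = 5.55e-04 and 4.80e-04).

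The change of Odc1 at 4 h was smaller, 0.76 ± 0.35 in Irf4+/- and 0.70 ± 0.35 in Irf4-/- cells, and was likewise called only with the block (adjusted p = 0.341 and 0.404, and 0.0119 and 0.0187 with the block). Both other kept Odc1 probes gave 0.77 and 0.63 in Irf4+/- and 0.71 and 0.61 in Irf4-/- cells. Between 4 h and 18 h Srm was lower by 1.19 and 1.20 in the genotypes (-1.19 ± 0.77 and -1.20 ± 0.77), with adjusted p = 0.00874 and 0.0116 with the block and 0.792 and 0.877 without it. Odc1 differed by -0.62 ± 0.35 and -0.52 ± 0.35, and only the first was called, with the block (adjusted p = 0.0472 and 0.105). At 18 h neither gene was called against mock, with or without the block. Srm stood at 0.44 ± 0.77 and 0.50 ± 0.77, higher than mock in all 3 experiments of both genotypes. With the block its SE was 0.25 (adjusted p = 0.291 and 0.176). Odc1 stood at 0.14 ± 0.35 and 0.18 ± 0.35, with an SE of 0.19 with the block (adjusted p = 0.715 and 0.520). Over all 18 arrays the levels of Odc1 and Srm had a Pearson r of 0.95, given as a description, since the arrays share experiments and conditions.

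Levels of the brightest Sms probe followed the experiment more than the condition. They ran from 3.96 to 4.20 in the 6 arrays of experiment A, from 2.90 to 3.53 in B and from 3.26 to 3.70 in C. The IL-4 changes of this probe were between -0.13 and 0.18, with an SE of 0.37, and with the block, where the SE was 0.11, none was called (lowest adjusted p = 0.307). Changes of both other kept Sms probes ran from -0.54 to 0.13, and none was called with or without the block. The brighter of these probes overlapped between experiments, from -2.36 to -1.42 in A, -2.86 to -2.10 in B and -2.35 to -1.92 in C.

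The start of Odc1 is shown because, of the polyamine genes with windows in the RefSeq table (Odc1 and Sms), it is the one called with the block. The window is chr12:17544623-17544922 on the plus strand of GRCm38.p6, with 250 bases before and 50 after the start. None of the 5 motifs has a match in it, so it holds no capitals.
Odc1: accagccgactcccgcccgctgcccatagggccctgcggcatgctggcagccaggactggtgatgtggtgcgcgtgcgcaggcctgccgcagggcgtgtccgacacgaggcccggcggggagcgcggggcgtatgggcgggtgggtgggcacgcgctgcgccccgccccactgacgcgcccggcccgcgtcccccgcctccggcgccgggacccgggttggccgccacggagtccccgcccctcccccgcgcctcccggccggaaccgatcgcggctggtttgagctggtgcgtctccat
Its share of G and C is 78%, and that of the Ass1 window 74%. Windows of 4 of the 10 genes were in the table, 6 windows in all. Among the others, 1 of 2 windows of Slc7a1 held TATAAA (found in 13.6% of all windows) and TTCNNNGAA (8.3%), and 1 of 2 windows of Sms held the E-box. TTCNNNNGAA, in 6.95% of all windows, and GAAANNGAAA, in 3.44%, had no match in the 6. These are matches of letters and not measured binding.

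**Figure D3:**
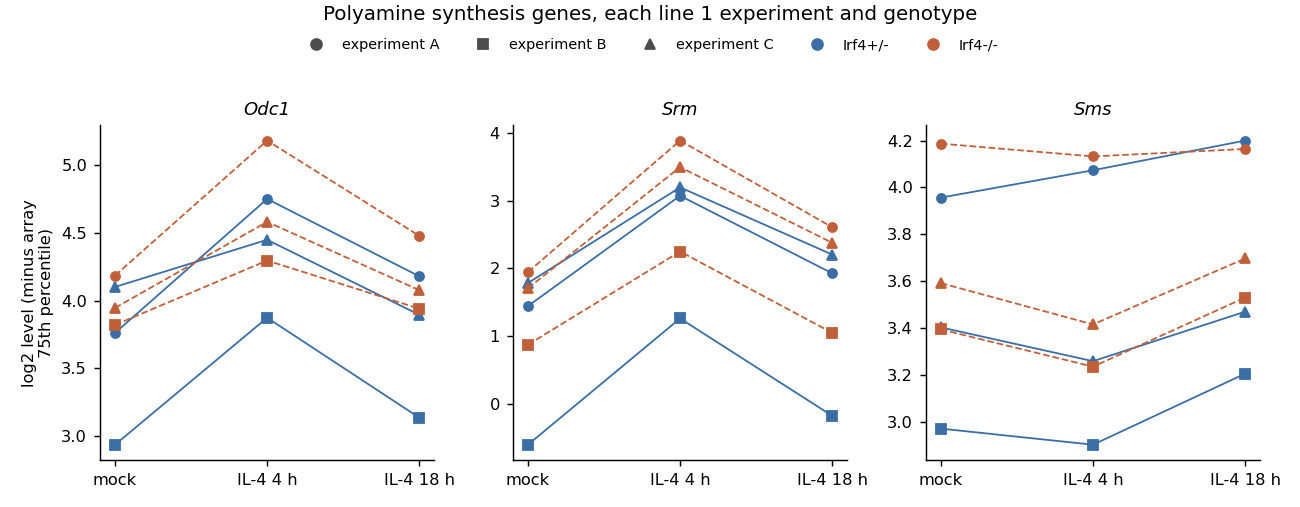
Log2 level (minus the array's 75th percentile) of Odc1, Srm and Sms in mock, 4 h and 18 h of IL-4, with 1 line per experiment and genotype (solid Irf4+/-, dashed Irf4-/-). All 6 lines of Odc1 and of Srm are highest at 4 h, with experiment B lowest within each genotype, and no line of Sms peaks at 4 h; the 3 vertical scales differ.

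No gene of the 10 was called between the genotypes. In mock, at 4 h and at 18 h of IL-4, 0 of the 9 tested genes were called, against 0%, 0% and 0.0258% of all genes. With the block it was again 0 of 9 in each, against 0.0323%, 0.0258% and 0.413%. A response to IL-4 that differed by genotype was called for 0 of 9 genes at 4 h and at 18 h, where 0% of all genes were called without and 0% with the block. The design therefore called almost no gene by genotype. In experiments A and B each genotype was on a slide of its own, so a difference between genotypes holds that between slides as well. The intervals below come from the fit without the block and describe genotype and slide together. For Arg1 the difference, Irf4-/- minus Irf4+/-, was 0.39 (95% confidence interval -1.18 to 1.96) at 4 h and 0.30 (-1.28 to 1.87) at 18 h. For Slc7a2 it was -0.11 (-1.09 to 0.87) and -0.26 (-1.24 to 0.72). For Ass1 it was -0.02 (-0.38 to 0.34) and -0.33 (-0.69 to 0.04). For Srm it was 0.70 (-0.94 to 2.35) and 0.69 (-0.95 to 2.34). With the block the SE of Srm fell from 0.77 to 0.25, and neither difference was called (limma adjusted p = 0.682 and 0.240).

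Arg2 had the largest mean difference between the genotypes among the 9 tested genes, but passed the filter on dim signal only through Irf4+/- groups with IL-4. It was lower in Irf4-/- cells by 1.70 in mock, 1.28 at 4 h and 2.05 at 18 h (-1.70 ± 0.77, -1.28 ± 0.77 and -2.05 ± 0.77), and the groups did not overlap in any condition, although the gap between them was 0.03 in mock and at 18 h and 0.26 at 4 h. It was not called (adjusted p = 1 in each, and 0.345, 0.762 and 0.249 with the block). In experiment A the differences were -2.43, -2.27 and -4.94 and in B -2.64, -1.32 and -1.18, while in C they were -0.03, -0.26 and -0.03. In experiment A each genotype was on a slide and a scan day of its own, in B on a slide of its own with 1 scan day, and in C both genotypes shared 1 scan day and 1 of 3 slides held both. Genotype and slide thus cannot be told apart in A and B. The Asl groups lay apart between the genotypes as well, by 0.03 at 4 h and 0.05 at 18 h. These Asl differences were -0.31 ± 0.16 and -0.29 ± 0.16 and were not called. The share of all genes whose genotype groups lie apart was not counted, so non-overlap is not read as a trait of Arg2. The Arg2 probe was above background on 8 of 9 Irf4+/- arrays and 5 of 9 Irf4-/- arrays. Its Irf4-/- levels of -8.57 (18 h, A) and -8.16 (mock, B) lay below the lowest signal called well above background there, -6.38 and -6.37. The sizes of the Arg2 differences thus rest in part on signal at background and are not measured distances. With normexp the mock difference turned to 0.49, and with normexp after spots far below their local background were left out it was -0.63.

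The other enzymes, cofactors and carriers of the pathway were taken as 7 lists of 57 genes, of which 53 were tested. All calls are from limma. Without the block 5 of them were called in at least 1 comparison, in each case IL-4 against mock, and with the block 20. At 4 h the calls without the block were 2 up and 1 down in each genotype, 5.66% of the 53, against 4.28% of all genes in Irf4+/- and 3.91% in Irf4-/- cells. At 18 h they were 1 up and 1 down in Irf4+/- cells, 3.77% against 4.12%, and 1 down in Irf4-/- cells, 1.89% against 3.54%. With the block 5 rose and 5 fell at 4 h in Irf4+/- cells (18.9%), and 6 rose and 5 fell in Irf4-/- cells (20.8%), against 18.2% of all genes in both. At 18 h 5 rose and 7 fell in Irf4+/- cells, 22.6% against 15.5%, and 6 rose and 5 fell in Irf4-/- cells, 20.8% against 18.6%. These shares lie near those of all genes, so the counts are no result about the pathway. The medians of the 7 lists lay between -0.33 and 0.39 at 4 h in Irf4+/- cells, where the median of all genes was -0.02, and between -0.20 and 0.40 in Irf4-/- cells, where it was 0.08.

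Azin2, of the list of polyamine synthesis, regulation and use, encodes an antizyme inhibitor that protects ornithine decarboxylase from breakdown; the array lists its probe under the older name Adc. Its levels in Irf4+/- cells were -3.71, -3.39 and -2.34 in mock, -1.35, -0.79 and -0.13 at 4 h and -0.93, -1.37 and -0.46 at 18 h. Irf4-/- cells gave -4.40, -3.05 and -2.63, then -1.89, -1.03 and -0.41, then -1.91, -1.55 and -0.97. All IL-4 arrays lay above all mock arrays of their genotype. Azin2 rose by 2.39 ± 0.51 at 4 h and 2.23 ± 0.51 at 18 h in Irf4+/- cells (adjusted p = 0.0137 and 0.0216) and by 2.25 ± 0.51 at 4 h in Irf4-/- cells (adjusted p = 0.0204). At 18 h in Irf4-/- cells the difference was 1.88 ± 0.51 and was called only with the block (adjusted p = 0.0601, and 1.92e-04 with the block). The other 11 genes of that list, among them Amd1, Azin1 and the antizyme genes Oaz1, Oaz2 and Oaz3, were not called without the block. With it, of the 12 genes of the list, 1 was called up at 4 h and 2 at 18 h in Irf4+/- cells. In Irf4-/- cells 2 and 3 were called up, and none was called down in either genotype. Of all genes, 18.2% and 15.5% were called in Irf4+/- and 18.2% and 18.6% in Irf4-/- cells.

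Gatm encodes the enzyme that moves the amidino group of arginine to glycine in the first step of creatine synthesis. Its levels in Irf4+/- cells were 1.34, 0.70 and 0.69 in mock, 2.85, 2.50 and 2.61 at 4 h and 2.63, 1.62 and 1.51 at 18 h. Among Irf4-/- arrays the levels were 1.40, 0.71 and 0.81, then 2.86, 2.76 and 2.73, then 2.71, 1.82 and 1.91. It rose at 4 h by 1.74 ± 0.31 in Irf4+/- and 1.81 ± 0.31 in Irf4-/- cells (adjusted p = 0.00418 and 0.00349), or 3.34-fold and 3.51-fold. At 18 h it stood 1.01 ± 0.31 and 1.17 ± 0.31 above mock, called only with the block (adjusted p = 0.102 and 0.0541, and 0.00108 and 4.05e-04 with the block). Of the 6 genes of the urea cycle and creatine list 4 were tested, and Otc and Cps1, the liver enzymes of the urea cycle, were not above background.

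Atp13a3, a polyamine transporter gene, fell by 0.69 ± 0.17 at 4 h in Irf4-/- cells (adjusted p = 0.0305). Its levels there were -1.63, -1.65 and -1.53 in mock and -2.21, -2.23 and -2.44 at 4 h, which do not overlap. In Irf4+/- cells the 4 h difference was -0.50 ± 0.17, called only with the block (adjusted p = 0.138, and 0.033 with the block). Padi2, which encodes an enzyme converting arginine residues of proteins to citrulline, fell by 0.86 ± 0.23 at 4 h in Irf4+/- cells (adjusted p = 0.0488). Its levels were 0.58, 0.78 and 1.00 in mock and -0.30, -0.21 and 0.29 at 4 h. In Irf4-/- cells the difference was -0.74 ± 0.23 (adjusted p = 0.105, and 6.48e-04 with the block).

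In the list of nitric oxide cofactors and control, 1 of 11 genes was called, at 18 h, against 4.12% of all genes in Irf4+/- and 3.54% in Irf4-/- cells. It was Nos1, the neuronal nitric oxide synthase gene, by a probe that the array lists under a RIKEN clone name which the RefSeq table gives as a synonym of Nos1. That probe read -4.70, -5.28 and -5.44 in Irf4+/- mock and -6.93, -7.59 and -6.98 at 18 h, and in Irf4-/- cells -4.10, -5.04 and -5.13 and then -6.14, -6.99 and -7.55. It fell by 2.03 ± 0.45 in Irf4+/- (adjusted p = 0.0186) and by 2.13 ± 0.45 in Irf4-/- cells (adjusted p = 0.0148), where it was at least 3.35-fold lower because no 18 h array was above background. The probe that the array itself names Nos1 was above background on 1 of 18 arrays and was not tested, so the fall rests on the clone probe. Gch1, Gchfr, Pts, Spr and Qdpr, whose enzymes and regulator make or recycle the cofactor tetrahydrobiopterin, were not called without the block. With the block 1 of the 11 genes of the list was called up and 1 down at 18 h in each genotype. Of all genes, 15.5% in Irf4+/- and 18.6% in Irf4-/- cells were called at 18 h with it.

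**Figure D4:**
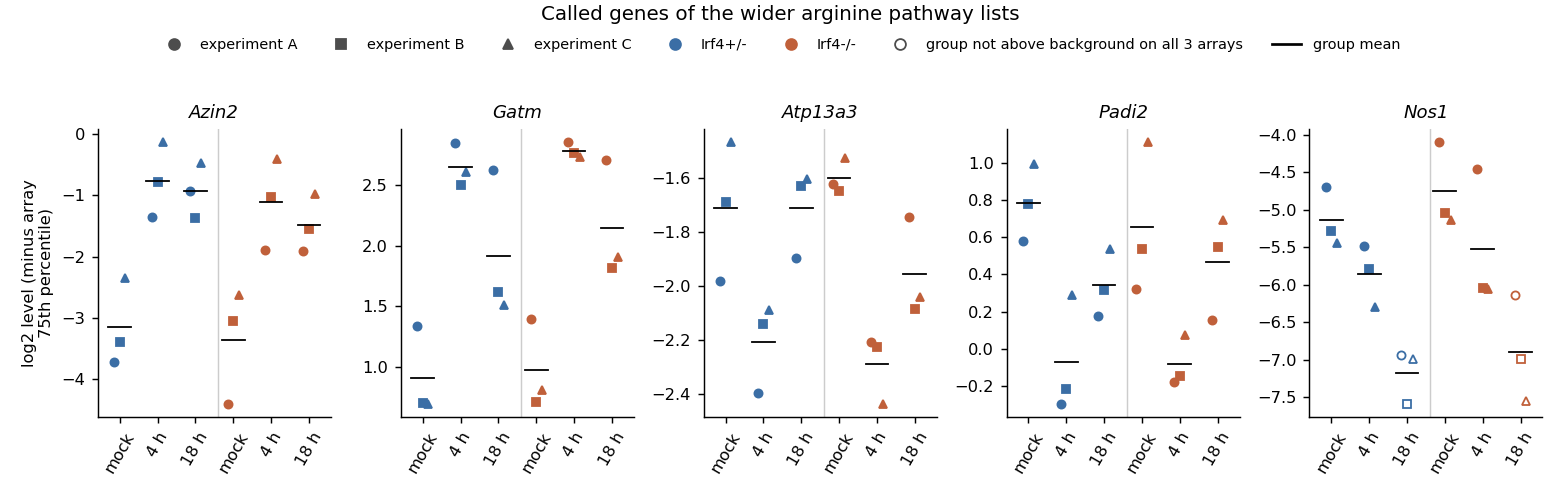
Log2 level (minus the array's 75th percentile) of the 5 called genes of the wider pathway in the 6 groups, 1 point per array, with the experiments as marker shapes, the genotypes as colours, the group mean as a bar and open markers for groups not above background on all 3 arrays. Azin2 and Gatm are higher with IL-4 in both genotypes, Atp13a3 and Padi2 are lowest at 4 h, and the Nos1 clone probe is lowest at 18 h.

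In the list of other arginine and ornithine transporters and related genes, 0 of 8 were called without the block. In the 4 comparisons with mock 3.54% to 4.28% of all genes were called. Slc7a5 and Slc3a2 stand in this list as related genes, so their levels are not read as arginine transport. With the block 3 of 8 were called at 4 h in Irf4+/- and 4 of 8 in Irf4-/- cells, against 18.2% of all genes in both, and 1 of 8 at 18 h in each, against 15.5% and 18.6%. With it Slc7a7, encoding an exporter of cationic amino acids, was lower at both times in both genotypes, with differences of -0.78 ± 0.34 and -1.24 ± 0.34 in Irf4+/- and -0.86 ± 0.34 and -0.94 ± 0.34 in Irf4-/- cells. The limma adjusted p with the block was 0.0451 and 0.00378, then 0.0282 and 0.019, and without it 0.304 and 0.054, then 0.239 and 0.189. The mitochondrial carrier gene Slc25a29 was higher at 4 h, by 1.10 ± 0.30 and 0.97 ± 0.30 (adjusted p = 1.10e-04 and 3.18e-04 with the block, 0.0542 and 0.103 without it), and was not called at 18 h. With the block 2 genes were up and 1 down at 4 h in Irf4+/- cells, and 3 up and 1 down in Irf4-/- cells. From mock to 4 h mean Slc7a6 went from -2.05 to -0.94 in Irf4+/- and from -1.80 to -0.92 in Irf4-/- cells. Mean Slc7a5 went from -0.50 to 0.29 and from 0.01 to 1.09. The means of Slc25a15 and Slc3a2 were also higher at 4 h, and those of Slc7a3 and Slc25a2 lower. These genes are named after their values were seen, since the rule named only those called without the block.

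By their levels over the 18 arrays, the genes most like Arg1 among 15441 with a value on every array were Mcf2l, a guanine nucleotide exchange factor gene (Pearson r = 0.985), the sodium channel gene Scn3a (0.982) and Retnla (0.979), a secreted protein gene of alternatively activated macrophages. Most like Slc7a2 were the transcription factor gene Egr2 (0.984), the homeobox gene Msx3 (0.980) and Tmem26 (0.979). Arg1 and Slc7a2 themselves had an r of 0.96. For Nos2, whose values are those of a probe at background, the highest r were 0.840 (Zbtb37), 0.830 (Pknox2) and 0.825 (Sypl2), below those of the other 2 genes. The 18 arrays share 6 conditions and 3 experiments, so these values only describe likeness of level.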

How the data were processed

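Each of 18 macrophage samples was hybridised to 1 single-colour Agilent array. Titles gave the groups and the experiment letters. Per the file headers and the submitters' processing notes, the authors read the spots by Agilent Feature Extraction 9.5.1, giving background-subtracted intensity values without scaling between arrays, the mean spot and local background intensity, and flags. The deposited series table is in log2, with its making unstated. Its columns matched 75th-percentile-scaled log2 intensity after subtraction of the Irf4+/- mock array of the same letter (lowest correlation 0.999946 over 23604 probes), so that those 3 mock columns are 0. Column medians were -0.18 to 0.21, and the table served for values only.

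Here log2 intensity was scaled to each array's 75th percentile (719.6 to 1971.8). Control spots and outlier-flagged spots (63 to 182 per array) were left out, and spots of a probe were averaged. A probe was kept when well above background, by most of its spots, on all 3 arrays of at least 1 group (27505 probes). Of 41174 probes, 22944 were named by RefSeq accession, 6664 by a current symbol, 3108 by a synonym and 2014 by the file's own name; 6444 had no symbol. The brightest kept probe stood for a gene.

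Tests used limma 3.58.1 in R 4.3.3 (lmFit, eBayes; statmod 1.5.0), 1 mean per group over all 18 arrays, two-sided, with Benjamini-Hochberg adjustment over 15497 genes and an adjusted p under 0.05. Intervals are 95% and come from this fit. The fit was tested on simulated arrays with independent noise and no shared effect of experiment or slide. That test therefore cannot decide between the fits with and without the block. The experiment letters pair arrays, as littermates were used within an experiment and residuals of arrays of the same letter correlated at 0.43 to 0.88, so a fit with the letter as a block stands beside the first. It is not known whether samples came from separate cultures beyond these experiments; 3 arrays per group limit the precision. Python 3.11.15, numpy 2.4.6, pandas 2.3.3 and matplotlib 3.10.9 read files and drew plots.

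All 10 genes are named. Genes of the wider lists are named when called without the block, at most 3 per list and comparison, and the 3 genes with the highest Pearson r are named for Arg1, Nos2 and Slc7a2. Members, lists and rules were chosen with earlier results of these data known. Alternatives were other scalings, normexp (offset 50), no filter, the mean of probes, fewer samples, slide, scan day and each array left out. Probe coordinates were not used here, since no source used here names their build.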

Additional observations from a re-analysis of the deposited data

How the results depend on the processing

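The 10 called results of Arg1, Slc7a2 and Ass1 were each read in 18 fits that left out 1 array and in 11 other settings. Of these 290 checks 257 kept direction and call, 33 lost the call, and none reversed. The checks share most of their arrays, and a left-out array was often in neither group compared. Arg1 lost no call. Slc7a2 lost 2, both with normexp in Irf4-/- cells, and the rest were of Ass1. With normexp 1 of 9 genes was called in Irf4-/- cells at 4 h and 1 at 18 h. Of all 15497 genes, normexp called 223 and 138 there, where the first fit called 606 and 548. Fits that take up differences between experiments called more genes, among the 9 and among all. For 4 h against mock in Irf4+/-, 4 h against mock in Irf4-/-, 18 h against 4 h in Irf4+/- and 18 h against 4 h in Irf4-/- cells, the replicate block by experiment gave 4, 4, 3 and 2 genes (18.2%, 18.2%, 11.5% and 8.48% of all genes), slide as a random block 5, 5, 3 and 4 (32.8%, 27.1%, 19% and 22.4%), slide as a fixed block 4, 5, 1 and 3 (29.4%, 20.8%, 12.8% and 18%), and scan day as a fixed block 4, 4, 1 and 1 (11.1%, 10.9%, 5.61% and 3.67%). The block called 9 results that the fit without it did not, and ended no call. Leaving out 1 array gave 2 to 3 genes at 18 h in each genotype, 2 at 4 h, and 0 elsewhere. These counts describe how the calls hold and are no result about the 9 genes as a set. Median scaling shifted the genotype difference in mock by 0.12 and other comparisons by less. Slide and scan day as fixed blocks, and normexp without the up to 8 spots per array far below their local background, were chosen after seeing the data. Slide as a fixed block was not run for the genotype comparisons, since only 1 slide holds both genotypes. Nos2 at background, and Arg1 in mock cells, have no measured level below which change could be read, and 3 arrays per group limit what can be called.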
